A study of Macaca mulatta with 12 samples.

Results

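The genes described here encode parts of the motile cilium: axonemal dyneins, the radial spokes and the proteins named CFAP for cilia and flagella associated protein. They were picked by a rule on names, as every row of the deposited count table whose symbol starts with DNAH, DNAI, DNAL, CFAP or RSPH followed by a digit. The group was chosen with earlier results of these data known. The rule gave 46 of 19708 rows: 11 dynein heavy chains (DNAH), 2 intermediate chains (DNAI), 2 light chains (DNAL), 26 CFAP genes and 5 radial spoke head or stalk genes (RSPH). A further 7 rows carried only macaque identifiers to which a reference table gives such a symbol, and these are described apart.

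A motile cilium beats because dynein motors slide its doublet microtubules past each other. Outer arms supply most of the force, inner arms shape the bend, and radial spokes together with the central apparatus coordinate the motors, while microtubule inner proteins line the doublets from within. In the brain the ependymal cells that line the ventricles carry tufts of such cilia, which move cerebrospinal fluid, whereas neurons and astrocytes usually bear at most a single primary cilium that does not beat.

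The nuclei were isolated from rhesus macaque (Macaca mulatta) amygdala that had been frozen after surgical removal, and were profiled by droplet single-nucleus RNA sequencing of 3′ transcript ends. The 12 labelled samples formed 1 group, with no treatment, genotype or age in the labels, and with 3 specimen numbers and 4 library numbers in their titles. The deposited table held 26400 nuclei and 151526883 unique molecular identifiers (UMIs, 1 per captured transcript), with a median of 5053.5 UMIs per nucleus. Its barcodes ended in 1 of 3 suffixes, called barcode sets here, and no label ties a set to a specimen or a library.

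The nuclei therefore counted as 1 pooled sample, so replicate error is unknown and no difference was tested. The 95% intervals are exact and reflect counting alone, and the barcode sets, which may be technical, show only whether a difference recurs. Pairs of sets shared between 20 and 26 barcodes, at most 0.313% of the nuclei of either set. Levels are CPM (counts per 1000000) of a class's UMIs and are compared between classes within a gene, never between genes, since gene lengths were not used.

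Of 24538 nuclei kept after presumed doublets were left out, 793 were ependymal cells (3.23%, 3.01 to 3.46%), 6019 astrocytes, 438 oligodendrocytes, 11215 excitatory neurons and 4118 inhibitory neurons. Each name stands for clusters that resemble that cell type by marker genes. The 46 genes entered the doublet scores but had no part in the clustering. The markers did take part. The ependymal list includes genes tied to motile cilia, such as FOXJ1, so the class was not chosen independently of cilium genes. FOXJ1, the master regulator of motile ciliogenesis, stood at 34.2 CPM in ependymal cells (53 UMIs) and at 1.31 CPM in astrocytes. All 11 ependymal markers present in the table were detected in the ependymal nuclei, and they summed to 5767.8 CPM there, against 62.0 CPM in astrocytes, 59.5 in oligodendrocytes, 79.8 in the excitatory and 85.8 in the inhibitory neurons. Of 6 choroid plexus markers, FOLR1 and CLIC6 were at 0 UMIs in the ependymal nuclei, and the others were detected. The list summed to 74.3 CPM there, against 51.75 CPM in astrocytes, 36.2 in oligodendrocytes, 24.8 in the excitatory and 42.2 in the inhibitory neurons. This choroid plexus sum was higher in ependymal cells than in any other class, and its source was not tested. Astrocyte markers summed to 5479.7 CPM in ependymal cells and 23947.1 CPM in astrocytes, with AQP4, the water channel of astrocyte endfeet and of ependyma, at 261.6 and 324.5 CPM. The part of this astrocyte signal in the results was not tested.

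The 46 genes together made up 26016.5, 27012.7 and 26489.5 CPM of the ependymal UMIs in the 3 barcode sets, or 2.65% overall (41043 UMIs). The same sum was 978.4 to 1021.6 CPM in astrocytes, 592 to 702 CPM in oligodendrocytes, 1440.5 to 1456.3 CPM in excitatory neurons and 848.7 to 860.6 CPM in inhibitory neurons. The ependymal range lay far above the others in every set, and among the other classes excitatory neurons were highest and oligodendrocytes lowest in every set. The median depth was 1933 UMIs in ependymal nuclei, 1732 in astrocytes and 1678 in oligodendrocytes, but 7858 in the excitatory and 5636 in the inhibitory neurons.

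**Figure D1:**
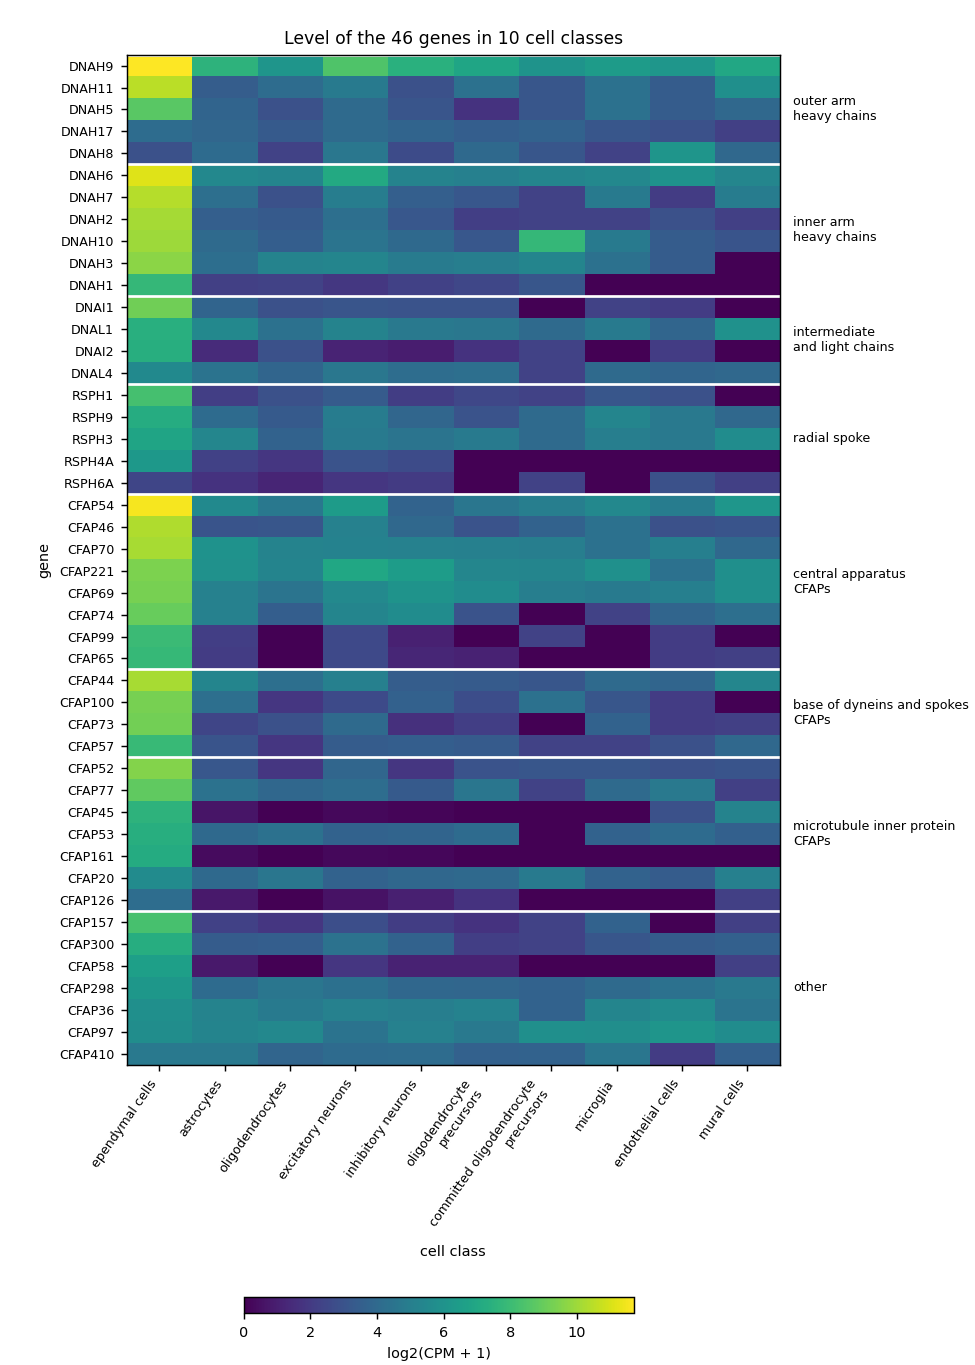
Level of each of the 46 genes (rows, grouped by role) in 10 cell classes (columns), as log2 of CPM plus 1 from counts summed over the nuclei of a class. The ependymal column is the brightest for 42 genes, and DNAH9, DNAH6 and CFAP221 also stand out in excitatory neurons, as DNAH10 does in committed oligodendrocyte precursors.

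A gene was counted as measured in a comparison if 1 of the classes held 50 UMIs or more and both would hold 10 or more given the higher level, and as higher or lower from 2-fold on. Against astrocytes 39 of the 46 genes were higher in ependymal cells, 1 was lower (DNAH8), 4 lay within 2-fold and 2 were not measured. Among all genes held out of the clustering and measured there, 11.9% were higher in ependymal cells and the median log2 fold was -0.09. For the 44 measured genes of the group the median was 5.05. The held-out genes include these 46 and the further lists described below, so each held-out share contains the genes set beside it. Against excitatory neurons 39 were higher (24.6% of the held-out genes) and against inhibitory neurons 39 (20.2%), with medians of 4.74 and 5.74. Of the measured genes, 11 against astrocytes, 2 against excitatory and 6 against inhibitory neurons were measured through their ependymal counts alone.

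Against oligodendrocytes 40 of the 46 were higher (26.6% of the held-out genes, median log2 fold 5.60). There, 40 of the 41 measured genes were measured through their ependymal counts alone, since 438 oligodendrocytes held few UMIs, so that count was nearly fixed by which genes could be measured. With no minimum on UMIs, all 46 genes gave 41, 42, 40 and 40 higher and 1, 0, 1 and 0 lower against astrocytes, oligodendrocytes, excitatory and inhibitory neurons. At least 4-fold higher in ependymal cells were 35, 36, 37 and 37 genes, against 5.83, 16.7, 12.4 and 10.0% of the held-out genes.

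Measured against all 4 classes were 41 genes, and 38 of these were higher than in each of the 4 (13.5% of held-out genes). DNAL4, CFAP36 and CFAP97 were the exceptions. For 41 of the 46 genes the lowest ependymal barcode set lay above the highest set of all 4 other classes, and 40 of those 41 were measured against all 4 (22.3% of held-out genes). CFAP97, CFAP410, DNAH8, DNAH17 and RSPH6A overlapped. Being measured against all 4 classes includes the oligodendrocyte filter, which 40 of 41 genes passed through their ependymal counts alone. The counts out of 41 genes were therefore partly set by which genes could be measured. The same limit holds for the counts by role group given below.

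**Figure D2:**
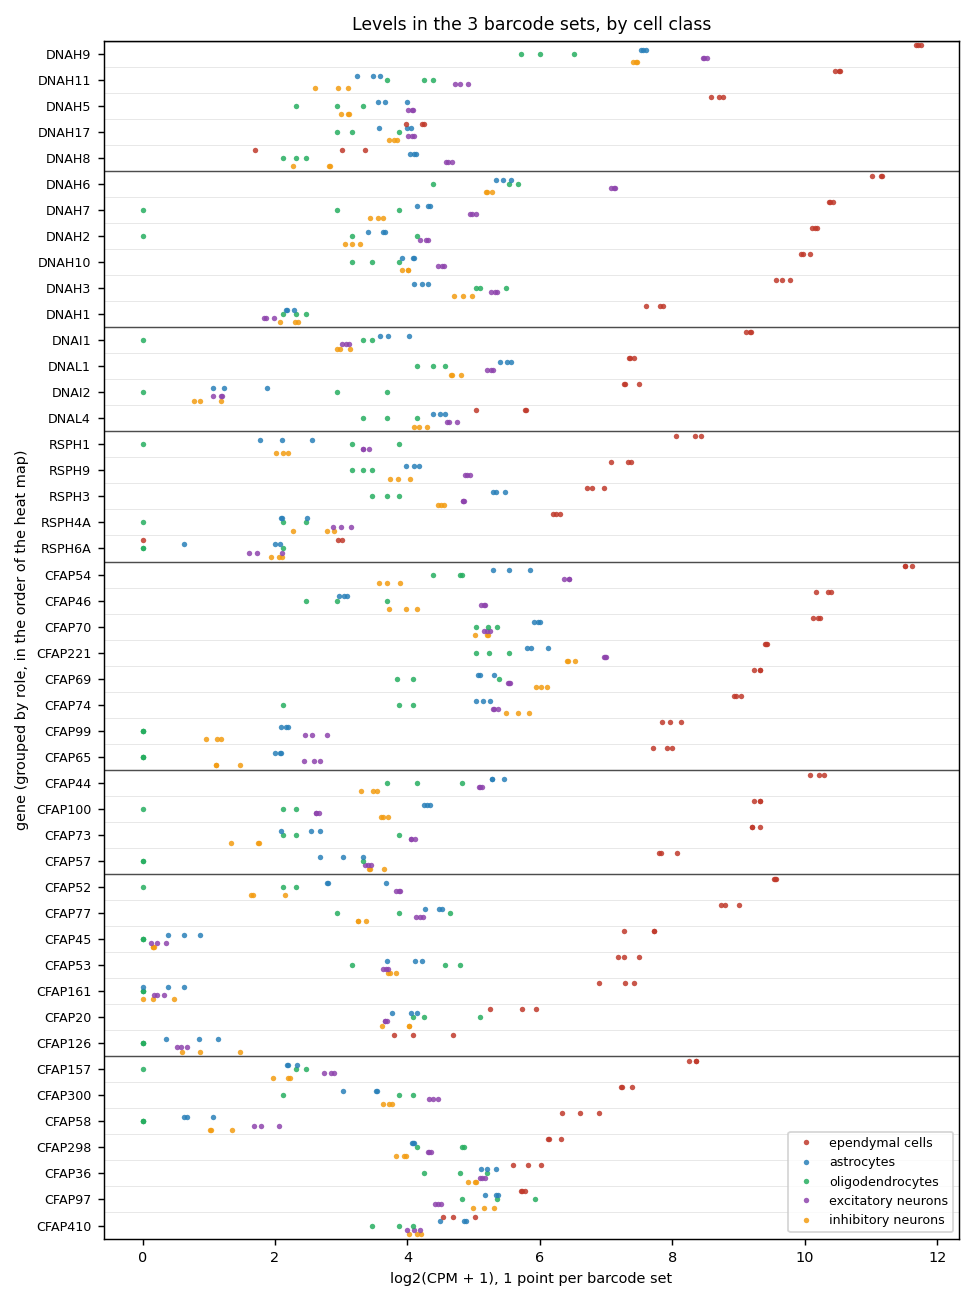
Each point is the level of a gene in 1 barcode set of 1 cell class, as log2 of CPM plus 1, with genes in the role groups of the heat map. For 41 of 46 genes the 3 ependymal points lie to the right of all points of astrocytes, oligodendrocytes and neurons, and for CFAP97, CFAP410, DNAH8, DNAH17 and RSPH6A they overlap with them.

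Among the outer arm heavy chains, which are the motors of the force-producing arms, 3 of 5 were high in ependymal cells and the other two were not. DNAH9, the heavy chain of the distal part of respiratory cilia, was at 3292.3, 3335.8 and 3437.3 CPM in ependymal cells, 184 to 194 in astrocytes, 51.7 to 90.6 in oligodendrocytes, 351 to 365 in the excitatory and 168 to 176 CPM in the inhibitory neurons. The classes did not overlap, and DNAH9 had a clear second level in excitatory neurons. It was 17.8-fold higher in ependymal cells than in astrocytes (log2 4.15, 4.08 to 4.23) and 9.39-fold higher than in excitatory neurons (log2 3.23, 3.19 to 3.27).

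DNAH11, the proximal counterpart of DNAH9, was at 1401, 1481 and 1467 CPM in ependymal cells, 8.45 to 11.04 in astrocytes, 11.9 to 19.99 in oligodendrocytes, 25.3 to 29.2 in the excitatory and 5.11 to 7.58 in the inhibitory neurons. The ependymal level was 147-fold that of astrocytes (log2 7.20, 6.91 to 7.49). DNAH5, whose loss is a frequent cause of primary ciliary dyskinesia in humans, was at 433, 418 and 384 CPM in ependymal cells and at 10.8 to 14.99 in astrocytes, a 33.1-fold difference (log2 5.05, 4.78 to 5.33). Its ependymal sets stood clear of all 12 sets of the other classes, of which the highest was 16.02 CPM.

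DNAH8 and DNAH17 are the outer arm heavy chains known from sperm flagella. DNAH8 was low in ependymal cells, with 10 UMIs in 793 nuclei (6.46 CPM, 3.10 to 11.9), and its sets were at 9.25, 7.09 and 2.26 CPM. It was at 15.4 to 16.5 CPM in astrocytes and 22.8 to 24.5 in excitatory neurons, so that it was lower in ependymal cells by 2.47-fold and 3.66-fold (11.1 and 14.3% of held-out genes were lower). Without the barcode set at 2.26 CPM the first difference fell short of 2-fold (log2 -0.95). DNAH17 was at 14.8, 17.7 and 18.1 CPM in ependymal cells, 10.9 to 15.6 in astrocytes and 15.03 to 16.2 in excitatory neurons, with overlapping sets and no difference of 2-fold.

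All 6 inner arm heavy chains were higher in ependymal cells than in each of the other 4 classes (13.5% of held-out genes). Their median log2 folds were 5.98 against astrocytes, 6.23 against oligodendrocytes, 5.49 against excitatory and 6.02 against inhibitory neurons. DNAH6 was at 2284, 2308 and 2074 CPM in ependymal cells, 39.5 to 46.05 in astrocytes, 19.9 to 49.96 in oligodendrocytes, 134 to 139.9 in the excitatory and 35.3 to 37.7 in the inhibitory neurons. Excitatory neurons held the second level, 3.78-fold that of inhibitory neurons and 6.14% of the ependymal level. DNAH7 was at 1327, 1368 and 1323 CPM in ependymal cells and 16.8 to 19.4 in astrocytes, a 73.0-fold difference (log2 6.19, 5.98 to 6.41).

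DNAH2 and DNAH10 form the inner arm with 2 heads, called f or I1. DNAH2 was at 1162, 1143 and 1101 CPM in ependymal cells and 9.54 to 11.6 in astrocytes (105-fold, log2 6.72), and DNAH10 was 66.2-fold higher than in astrocytes. DNAH1, at 218 CPM in ependymal cells, lay between 2.72 and 3.88 CPM in the other 4 classes. DNAH3 had the smallest fold of the inner arm chains over astrocytes, and DNAH6 over excitatory neurons (log2 4.03). DNAH3 was at 755, 879 and 806 CPM in ependymal cells and 16.2 to 18.9 in astrocytes (46.5-fold, log2 5.54, 5.32 to 5.77). It was lower in astrocytes than in oligodendrocytes (2.07-fold, log2 -1.05, -1.63 to -0.42).

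The intermediate and light chains, which hold the arm on its base and tune it, split by type among the 4 genes that the name rule gave. DNAI1 was at 552, 581 and 576 CPM in ependymal cells, 11.04 to 15.3 in astrocytes, 0 to 9.99 in oligodendrocytes, 7.10 to 7.65 in the excitatory and 6.65 to 7.72 in the inhibitory neurons. DNAI2, its partner in the outer arm, was at 154, 179 and 156 CPM in ependymal cells and at 0.71 to 2.69 in astrocytes and neurons. Both stood clear of every other class, with log2 folds against astrocytes of 5.49 (5.23 to 5.76) and 6.61 (5.92 to 7.38).

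The 2 light chains of the name rule were more widespread. This does not extend to every light chain. In a further list, DYNLRB2 was higher in ependymal cells than in astrocytes (log2 4.31) and DYNLL1 was not (log2 -0.17). DNAL1, which binds the motor domain of an outer arm heavy chain, was at 161, 170 and 163 CPM in ependymal cells, 40.9 to 46.05 in astrocytes and 35.9 to 38.1 in excitatory neurons, a 3.77-fold difference from astrocytes (log2 1.91, 1.69 to 2.14). DNAL4 was at 53.7, 31.9 and 54.2 CPM in ependymal cells, 19.9 to 22.6 in astrocytes and 23.6 to 25.9 in excitatory neurons. Its sets did not overlap, but the difference was 2.15-fold against astrocytes (log2 1.10, 0.70 to 1.49) and 1.89-fold against excitatory neurons, and the former fell short of 2-fold with presumed doublets kept (log2 0.86).

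The 4 measured radial spoke genes were higher in ependymal cells than in each of the other 4 classes (13.5% of held-out genes). RSPH1, a spoke head protein, was at 322, 266 and 343 CPM in ependymal cells, 2.42 to 4.91 in astrocytes, 0 to 13.6 in oligodendrocytes, 9.05 to 9.66 in the excitatory and 3.03 to 3.58 in the inhibitory neurons (86.8-fold over astrocytes, log2 6.44, 5.96 to 6.96). RSPH9, also of the spoke head, was at 133.2, 164.8 and 160.2 CPM in ependymal cells, 14.8 to 17.06 in astrocytes, 7.95 to 9.99 in oligodendrocytes, 28.1 to 29.8 in the excitatory and 12.4 to 15.5 in the inhibitory neurons. It was 9.56-fold higher in ependymal cells than in astrocytes, and RSPH4A, likewise of the spoke head, 20.1-fold. RSPH3, of the stalk, was at 124, 109.8 and 104 CPM in ependymal cells and 38.3 to 43.4 in astrocytes, the smallest fold among the measured spoke genes (2.80-fold, log2 1.49, 1.22 to 1.74). RSPH6A, the counterpart of RSPH4A in sperm, was close to undetected, with 7 UMIs in ependymal cells and 361 in all nuclei kept.

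A further 8 CFAP genes belong to the central apparatus, the pair of singlet microtubules with its projections. All 8 were higher in ependymal cells than in each of the other 4 classes (13.5% of held-out genes). CFAP54 was at 2931, 3141 and 2930 CPM in ependymal cells, 38.01 to 56.4 in astrocytes, 19.9 to 27.2 in oligodendrocytes, 81.7 to 86.1 in the excitatory and 10.9 to 13.8 in the inhibitory neurons. The ependymal level was 64.2-fold that of astrocytes (log2 6.01, 5.87 to 6.14), and the excitatory level was 6.92-fold that of inhibitory neurons (log2 2.79, 2.62 to 2.96). CFAP46, which sits on the same projection as CFAP54, was at 1146, 1349.9 and 1302 CPM in ependymal cells and 6.81 to 7.48 in astrocytes (176-fold, log2 7.46, 7.13 to 7.81).

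CFAP70 was at 1179, 1196 and 1115 CPM in ependymal cells, 59.3 to 63.02 in astrocytes and 34.5 to 36.9 in excitatory neurons (19.0-fold over astrocytes, log2 4.25, 4.12 to 4.38). CFAP221 had the smallest fold of the 8 against each of the other 4 classes, with 687, 673 and 682 CPM in ependymal cells, 54.9 to 68.8 in astrocytes, 124 to 126.3 in the excitatory and 84.4 to 91.5 in the inhibitory neurons. Its ependymal level was 11.3-fold that of astrocytes (log2 3.50, 3.36 to 3.64) but 5.42-fold that of excitatory neurons. CFAP69 and CFAP74 were 3.79 and 3.69 log2 units above excitatory neurons. CFAP65 and CFAP99 had no UMI in oligodendrocytes, and against a floor of 3 counts over that class they were at least 59.7-fold and at least 65.2-fold higher in ependymal cells.

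The 4 CFAP genes at the base of the dyneins and spokes were higher in ependymal cells than in each of the other 4 classes (13.5% of held-out genes). CFAP44, which tethers the heads of the f arm, was at 1077, 1185 and 1250.3 CPM in ependymal cells, 37.7 to 42.8 in astrocytes, 32.9 to 33.9 in the excitatory and 8.81 to 10.6 in the inhibitory neurons (29.6-fold over astrocytes, log2 4.89, 4.74 to 5.05). CFAP100 and CFAP73 act together as a link at the base of that arm, yet they were ordered in opposite ways outside the ependyma.

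CFAP100 was at 602, 639.5 and 639 CPM in ependymal cells, 18.04 to 19.2 in astrocytes, 5.13 to 5.36 in the excitatory and 11.2 to 12.01 in the inhibitory neurons. CFAP73 was at 587, 589.9 and 641 CPM in ependymal cells, 3.27 to 5.39 in astrocytes, 15.5 to 16.3 in the excitatory and 1.53 to 2.38 in the inhibitory neurons. So CFAP100 was 3.56-fold higher and CFAP73 3.53-fold lower in astrocytes than in excitatory neurons, and CFAP100 was 2.21-fold lower and CFAP73 7.54-fold higher in excitatory than in inhibitory neurons, with the same order in all 3 sets. Oligodendrocytes held 2 UMIs of CFAP100 and 5 of CFAP73, which put the ependymal levels 7.92 (6.06 to 10.97) and 6.54 (5.32 to 8.17) log2 units higher. CFAP57 was 33.3-fold higher in ependymal cells than in astrocytes.

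Of the 7 microtubule inner proteins 6 were measured. These 6 were higher in ependymal cells than in each of the other 4 classes (13.5% of held-out genes). CFAP52 was at 738, 758 and 749 CPM in ependymal cells, 5.93 to 11.7 in astrocytes, 13.2 to 13.8 in the excitatory and 2.10 to 3.45 in the inhibitory neurons (94.5-fold over astrocytes, log2 6.56, 6.24 to 6.90). CFAP77 was at 442, 516 and 424 CPM in ependymal cells and 18.3 to 22.1 in astrocytes (22.5-fold, log2 4.49, 4.27 to 4.72). Most UMIs of CFAP45 and CFAP161 lay in ependymal cells, which were 3.23% of the nuclei but held 88.3% of the 334 UMIs of CFAP45 and 90.2% of the 254 of CFAP161.

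CFAP45 was at 154, 211 and 209.9 CPM in ependymal cells, 0.299 to 0.818 in astrocytes, 0 in oligodendrocytes, 0.0933 to 0.280 in the excitatory and 0.117 to 0.128 in the inhibitory neurons. Its log2 fold was 8.41 against astrocytes (7.27 to 9.87, 6 UMIs there) and 10.05 against excitatory neurons (9.34 to 10.85, 17 UMIs). CFAP20, which lies at the inner junction of the doublet and is found in many tissues, was at 37.0, 60.2 and 51.9 CPM in ependymal cells, 12.7 to 16.8 in astrocytes and 15.9 to 33.3 in oligodendrocytes. Its difference was 3.33-fold from astrocytes (log2 1.74, 1.33 to 2.14) and 2.14-fold from oligodendrocytes, and the latter fell short of 2-fold with presumed doublets kept (log2 0.95). CFAP53 lay between, 3.39 log2 units above astrocytes, and CFAP126 was too sparse to be measured, with 27 UMIs in ependymal cells and 8 in astrocytes.

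Of the 7 remaining CFAP genes 4 were higher in ependymal cells than in astrocytes. CFAP157, known from basal bodies and sperm flagella, was at 304, 326 and 327 CPM in ependymal cells and 3.54 to 4.04 in astrocytes (85.4-fold, log2 6.42, 5.95 to 6.92). CFAP300, which takes part in dynein arm assembly, was at 149.9, 166.5 and 149 CPM in ependymal cells, 7.18 to 10.6 in astrocytes and 18.95 to 21.1 in excitatory neurons (16.4-fold over astrocytes, log2 4.03, 3.69 to 4.38). CFAP58, known from sperm flagella, was at 96.2, 79.7 and 117 CPM in ependymal cells and 0.539 to 1.09 in astrocytes (129-fold, log2 7.01, 5.996 to 8.25).

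CFAP298, a dynein assembly factor, was 2.17 log2 units higher in ependymal cells than in astrocytes, whereas CFAP36, CFAP97 and CFAP410 lay within 2-fold of them. CFAP36, a partner of small G proteins of primary cilia, was at 55.5, 63.8 and 47.4 CPM in ependymal cells and 33.7 to 39.2 in astrocytes (1.55-fold). CFAP97 was at 53.7, 51.4 and 51.9 CPM in ependymal cells, 35.01 to 40.1 in astrocytes, 27.2 to 59.6 in oligodendrocytes, 20.4 to 21.7 in the excitatory and 30.9 to 38.4 in the inhibitory neurons. CFAP410, known from the primary cilium of photoreceptors, was at 22.2, 24.8 and 31.6 CPM in ependymal cells and 21.5 to 28.4 in astrocytes, with overlapping sets and a ratio of 1.00 (log2 -0.01, -0.52 to 0.48).

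Across all 10 named classes, 42 of the 46 genes had their highest level in ependymal cells, and 40 of the 41 measured against all 4 classes did (21.1% of held-out genes). The limit given above on counts out of 41 genes holds here too. CFAP97 and DNAH8 were highest in endothelial cells, each at 68.0 CPM from 21 UMIs (42.1 to 104), and the interval of CFAP97 there overlapped that in ependymal cells (41.6 to 65.04). DNAH8 was at 46.8, 60.3 and 97.5 CPM in the 3 endothelial sets, above every set of the other 9 named classes, and 16 of 133 endothelial nuclei held it (12.03%, 7.04 to 18.8%). RSPH6A was also highest there, from 2 UMIs, and CFAP410 was level in astrocytes and ependymal cells.

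DNAH10 had a level in committed oligodendrocyte precursors, the cells on the way to myelination, far above that in the other cells of the lineage. This gene was singled out here after its values were seen. It was at 319, 218 and 102 CPM in the 3 sets of that class (225.2 CPM, 170.5 to 291.7, from 57 UMIs), against 1018.1 CPM in ependymal cells, 10.4 in oligodendrocytes (8 UMIs) and 8.04 in oligodendrocyte precursors (7 UMIs). Of 91 such nuclei 22 held it (24.2%, 15.8 to 34.3%), or 17.8% when each nucleus was thinned to 1000 UMIs, against 1.60% of oligodendrocytes (0.248% thinned). The ependymal markers summed to 67.2 CPM in the committed precursors, 1.16% of their ependymal level, while DNAH10 stood at 22.1% of its own.

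At full depth, and with presumed doublets left out, the share of UMIs from the 46 genes did not overlap between ependymal cells and the rest. The doublet scores used all genes, these 46 included, so the separation is not independent of which nuclei were left out. The 46 genes made up 1.11 to 4.28% of the UMIs of every one of the 793 ependymal nuclei, with a median of 2.62%. The median was 0.0878% in astrocytes, 0.0575% in oligodendrocytes, 0.143% in excitatory and 0.0818% in inhibitory neurons, and the highest nucleus outside the ependyma was an unnamed one at 0.855%. Thinned to 1000 UMIs the ranges met, with the lowest ependymal nucleus at 1% (750 of 751 were over it) and the highest astrocyte at 1.2%, the 1 astrocyte over 1%. A median of 21 of the 46 genes was detected per ependymal nucleus (5th to 95th percentile 14 to 27), against 1 in astrocytes and in oligodendrocytes, 8 in the excitatory and 4 in the inhibitory neurons. Thinned to 1000 UMIs, which left out 42 ependymal and 523 astrocyte nuclei among others, the medians were 15 in ependymal cells and 1 in the other 4 classes.

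**Figure D3:**
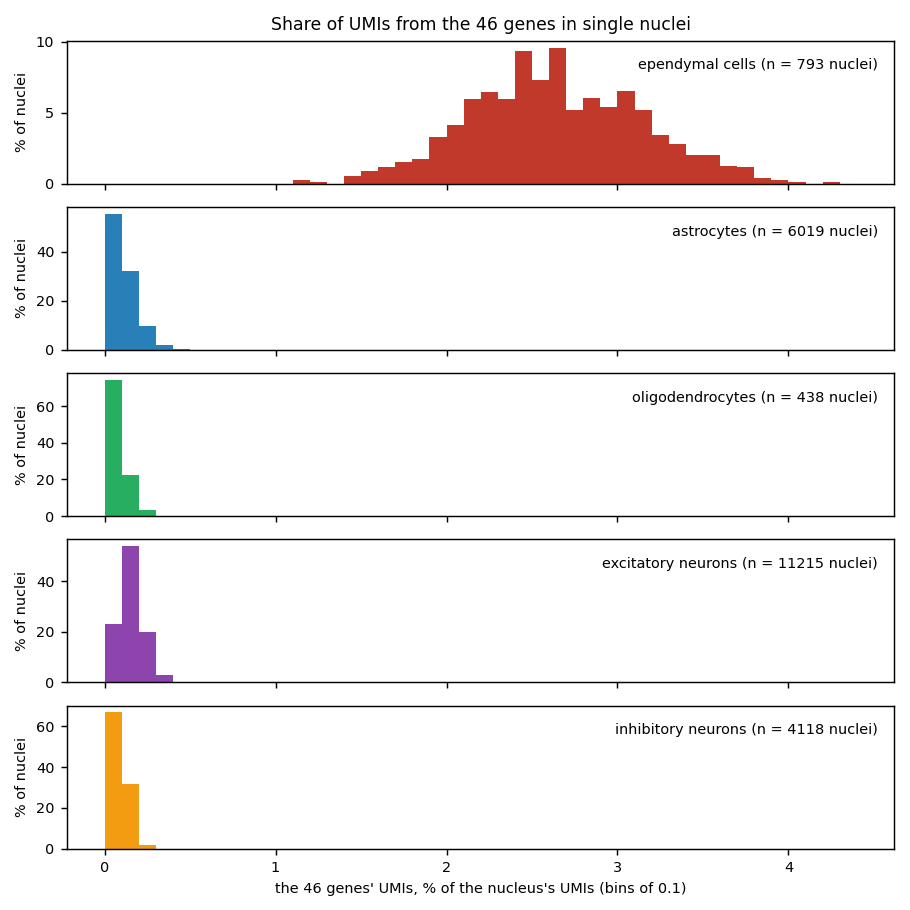
Histograms of the share of a nucleus's UMIs that came from the 46 genes, in bins of 0.1 percentage points, by class, with the share of that class's nuclei on the vertical axis. With presumed doublets left out, all 793 ependymal nuclei lie above 1% and no nucleus of the other 4 classes does.

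CFAP54 was detected in 98.2% of ependymal nuclei, DNAH9 in 98.5% and DNAH6 in 95.96%. The same genes were found in 7.38, 25.9 and 7.01% of astrocytes, whose median depth was close to that of ependymal cells. At 1000 UMIs the ependymal shares were 94.1, 93.2 and 86.7%, and the astrocyte shares 4.79, 16.6 and 4.20%. Excitatory neurons, with their greater depth, had DNAH9 in 87.2% of nuclei, but in 30.9% at 1000 UMIs.

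Clustered again without the 46 genes, the ependymal nuclei formed 1 group at a resolution of 0.5. At a resolution of 1.0 they formed 14 groups, whose summed level of the 46 genes ran from 25012.4 to 27691.1 CPM. Thinned to 1000 UMIs, the summed count of the 46 genes per nucleus had a variance of 1.43 times its mean, where counting error alone gives 1, and at full depth, which differs between nuclei, the ratio was 6.86. For the 34 genes that averaged at least 0.1 UMIs per thinned nucleus the ratio was 0.950 to 1.40, with a median of 1.06, and counts this low keep it near 1. The highest values belonged to DNAH9 (1.40), DNAH11 (1.34) and DNAH6 (1.31), and the lowest to CFAP52. The nuclei are of 1 pool, so these ratios describe it and no more.

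Neurons held low levels of many of these genes, and excitatory held more than inhibitory neurons. Of the 46 genes 17 were higher in excitatory neurons (8.38% of held-out genes), 1 was lower (CFAP100, 7.94% of held-out genes) and the median log2 fold of the 43 measured was 0.56, against -0.09 over held-out genes. The 17 took in 4 of 5 outer arm heavy chains (DNAH5, DNAH8, DNAH9, DNAH11) and 3 of 6 inner arm heavy chains (DNAH2, DNAH6, DNAH7). Astrocytes against excitatory neurons gave 1 gene higher (CFAP100, 18.9% of held-out genes) and 9 lower (13.7%), among them CFAP46 (4.81-fold), DNAH6 (3.20-fold) and DNAH11 (2.74-fold). Astrocytes against oligodendrocytes gave 9 higher (18.0%) and 1 lower (DNAH3, 8.71%), but 25 of the 26 genes measured there were measured through their astrocyte counts alone, so that split was nearly fixed by which genes could be measured. With no minimum on UMIs it was 11 higher and 6 lower.

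These neuronal levels were not in 1 proportion to the ependymal levels. In excitatory neurons the 41 genes with at least 50 ependymal UMIs ran from 0.0945% (CFAP45) to 60.7% (CFAP36) of the ependymal level, with a median of 3.06%, and DNAH9 stood at 10.7%. In astrocytes they ran from 0.189% (CFAP161) to 72.9% (CFAP97). The 11 ependymal markers summed to 1.38% of their ependymal level in excitatory and 1.49% in inhibitory neurons, to 1.08% in astrocytes and 1.03% in oligodendrocytes. Single genes weighed heavily in the neuronal sums: VWA3A gave 4248 of the 7531 marker UMIs of excitatory neurons (4.00% of its ependymal level), and MORN5 gave 1067 of the 2129 of inhibitory neurons (49.3%). The part of free RNA in these low levels was not tested.

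Among 11 neuronal clusters, several of the genes had their highest level in 1 excitatory cluster. No rule set beforehand chose the genes named here and below for such peaks. No share of held-out genes stands beside the peaks, so they are not shown to be particular to these genes. The largest, named here by its leading genes SLC4A4, MALRD1 and PROX1, held 5277 nuclei and had the highest sum of the 46 genes, at 1925.5, 1963 and 1931.7 CPM in the 3 sets, while the other 10 clusters lay between 819 and 1460 CPM. SLC4A4 is also an astrocyte marker, and ST18, which leads another excitatory cluster, an oligodendrocyte marker, so these leading genes do not belong to the excitatory list. PROX1 was at 265 CPM in the largest cluster, called the PROX1 cluster below, and at 225 CPM in the inhibitory cluster led by RGS6. In that inhibitory cluster the 46 genes summed to 875.6 CPM, so PROX1 was not particular to the cluster with the highest sum. Ependymal markers summed to 47.2 to 121 CPM over the 11 clusters and to 92.7 CPM in the PROX1 cluster, with FOXJ1 at 0.277 to 1.87 CPM in all of them.

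DNAH11 was at 65.2, 57.8 and 66.9 CPM in the PROX1 cluster, its highest level among the 11, and at or under 11.7 in every set of 9 of the other 10. Without the PROX1 cluster the ependymal level of DNAH11 was 7.22 log2 units above excitatory neurons, and with it 5.74. CFAP54 was at 153 to 154.3 CPM in the PROX1 cluster, but 7.52 to 8.82 in the inhibitory cluster led by CUX2. DNAH9 (527 CPM) and DNAH6 (231 CPM) were also highest in the PROX1 cluster.

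Other genes had other peaks. DNAH8 was highest in the cluster led by TRPS1 (50.1 to 55.2 CPM over the sets) and next in that led by KDR (32.95 to 49.5), and it was at 4.18 to 4.82 CPM in the PROX1 cluster. CFAP46 was highest in the small cluster led by TSHZ2 (109 to 153 CPM), and it was at 78.0 to 91.5 CPM in that led by CD40 and stood at 9.42 to 11.1 CPM in the PROX1 cluster. CFAP44 and DNAH3 were both highest in the cluster led by ST18, at 64.5 to 75.6 and 76.7 to 101 CPM. The clusters were found without these genes, but no test over animals was possible.

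**Figure D4:**
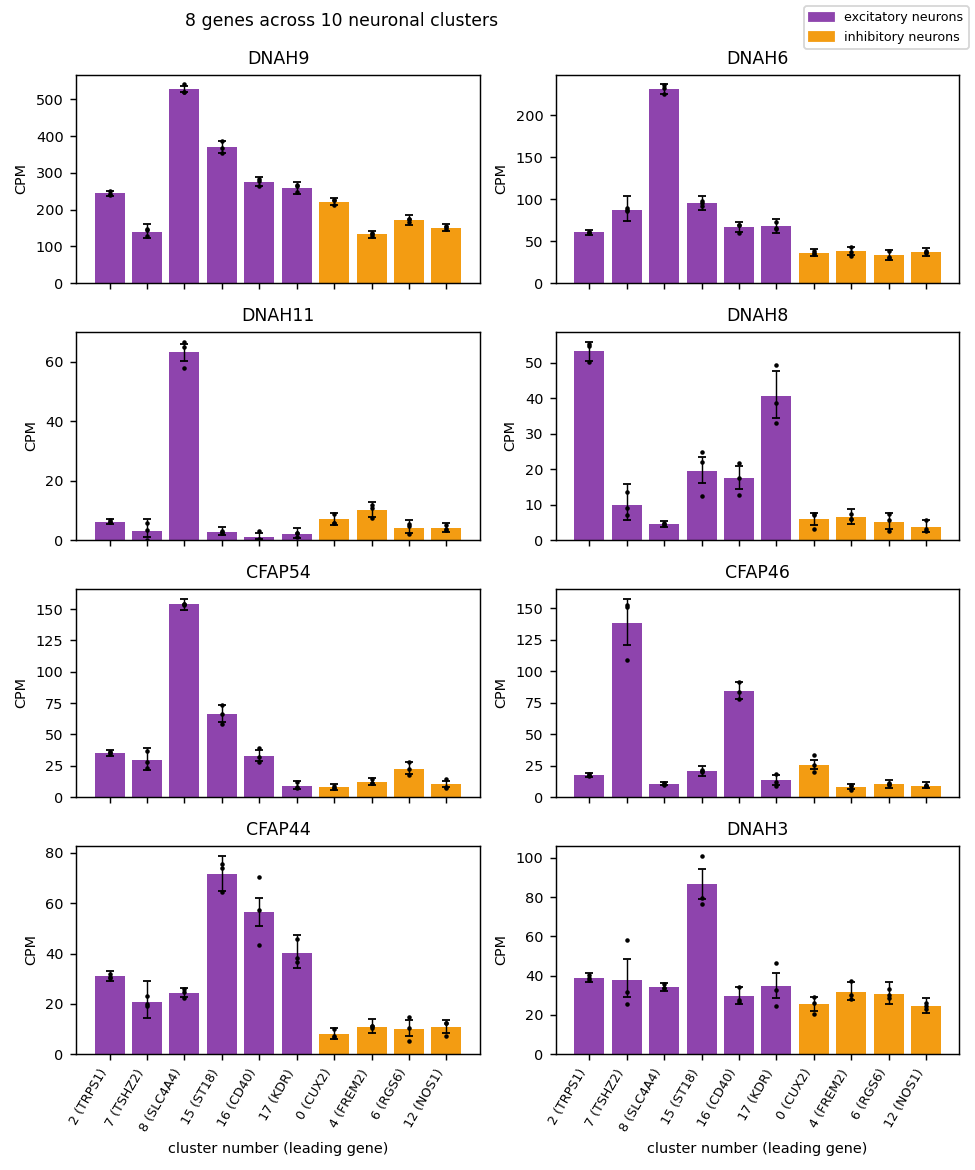
Level of 8 genes in 6 of the 7 excitatory and in the 4 inhibitory clusters, in CPM, with bars for the pooled value, error bars for the exact 95% Poisson interval and points for the 3 barcode sets. DNAH11, CFAP54, DNAH9 and DNAH6 peak in the cluster led by SLC4A4, DNAH8 in that led by TRPS1, CFAP46 in that led by TSHZ2, and CFAP44 and DNAH3 in that led by ST18.

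The rest of the axoneme and its supply lines were read from lists of 134 further genes in the table. The counts of these lists stand beside 11.9% of held-out genes higher and 11.1% lower in ependymal cells than in astrocytes. Several list genes were measured through their ependymal counts alone. DNAAF1 had 223 UMIs in ependymal cells and 13 in astrocytes, DRC7 255 and 7, and MYB 79 and 5. The counts of genes higher in these lists were therefore partly set by which genes could be measured. Of 12 measured dynein assembly factors, which fold the arms in the cytoplasm, 11 were higher in ependymal cells than in astrocytes (median log2 fold 3.60). DAW1 was at 199.6 CPM in ependymal cells and 1.59 in astrocytes (log2 6.98), DNAAF1 at 144 and 1.21 CPM (log2 6.89), and PIH1D1, a general chaperone cofactor, at 14.2 and 13.7 CPM. All 5 measured docking complex and ruler genes were higher (median 5.46), from ARMC4, a docking protein of the outer arm, at 608.6 against 3.45 CPM, and CCDC39, a molecular ruler, at 419.9 against 8.77 CPM, down to CCDC151 (log2 3.36).

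All 9 measured genes of the nexin-dynein regulatory complex, which links neighbouring doublets, were higher (median 4.22). DRC7 was at 164.7 against 0.653 CPM and DRC3 at 1565 against 23.9 CPM, while EFCAB2, matched by its identifier, had the smallest fold (log2 2.43). All 23 measured genes of the list of central apparatus and other axoneme proteins were higher (median 3.80), led by RIBC2 at 461.9 against 2.89 CPM and SPAG6 at 585 against 3.82 CPM, with EFHC2 lowest (log2 1.83). Another 5 axoneme genes listed under older symbols were all higher, from C6orf118 (log2 8.32) and EFCAB6 (log2 4.33) to CCDC173 (log2 3.61).

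Genes that motile and primary cilia share were higher by less. Intraflagellar transport, which carries parts along every cilium, gave 20 of 28 measured genes higher than in astrocytes and 0 lower (median 1.63), with KIF17 at 113 against 10.54 CPM and TTC26 at 450.3 against 44.01 CPM, and with TTC21B at 95.6 against 92.1 CPM. Cytoplasmic dynein and dynactin, which work in all cells, gave 3 higher and 1 lower of 23 (median -0.05), a share higher that is near the 11.9% of held-out genes. DYNLRB2, a light chain found in ciliated cells, was at 206.7 against 10.4 CPM and DYNLT1 at 86.6 against 27.9 CPM, while ACTR1A was lower, at 9.69 against 19.8 CPM.

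Of 13 measured regulators of multiciliation 7 were higher than in astrocytes and 0 lower (median 1.43). MYB was at 51.04 against 0.466 CPM and DEUP1, of the deuterosome that builds basal bodies, at 71.7 against 3.45 CPM. RFX4 was at 382.5 CPM in ependymal cells and 754.7 in astrocytes, just within 2-fold (log2 -0.98). Against excitatory neurons the medians of these lists ran from 5.16 for docking and ruler genes to 1.87 for intraflagellar transport, 0.48 for the regulators and 0.17 for cytoplasmic dynein.

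**Figure D5:**
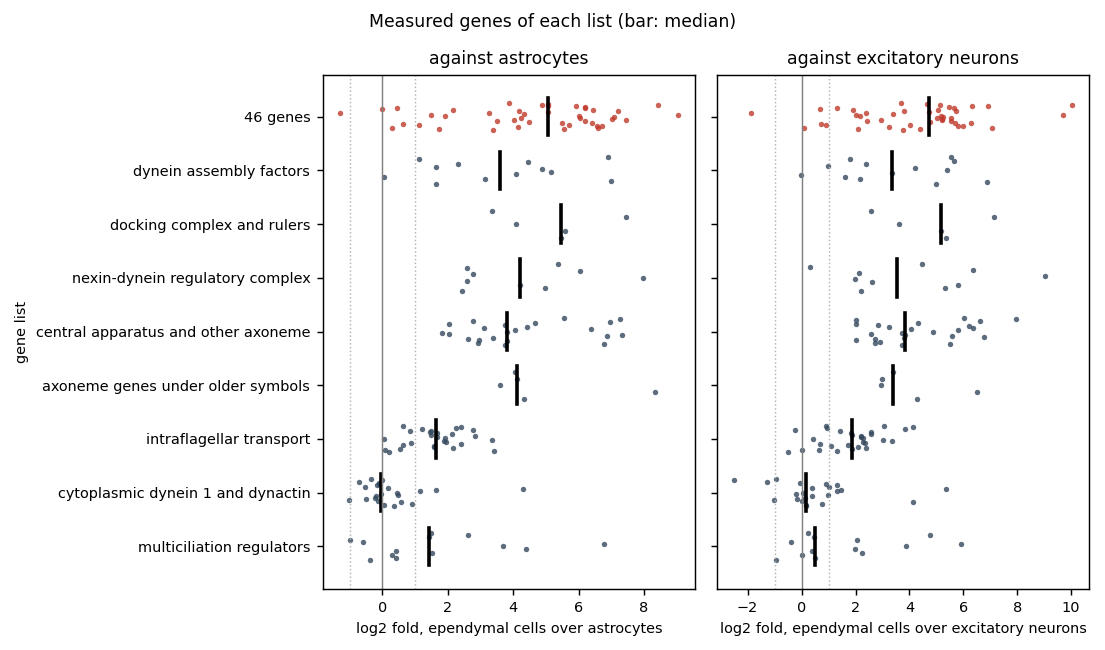
Log2 fold of ependymal cells over astrocytes (left) and over excitatory neurons (right) for each measured gene of the 46 (top row) and of 8 further lists, with a bar at the median and dotted lines at 2-fold. Axoneme and dynein assembly lists lie to the right, with medians of 3.60 to 5.46 against astrocytes. Intraflagellar transport (1.63) and the multiciliation regulators (1.43) lie between, and cytoplasmic dynein centres at -0.05.

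Of the 7 rows that a reference table names as CFAP genes, 5 were measured and higher in ependymal cells than in each of the 4 classes (13.5% of held-out genes). Oligodendrocytes held 3 to 9 UMIs of each, so these 5 were measured there through their ependymal counts alone. CFAP299 was at 793 CPM in ependymal cells and 5.41 in astrocytes, CFAP47 at 429 CPM in ependymal cells, CFAP206 at 270.7 and 6.62, CFAP61 at 259.7 and 11.7, and CFAP92 at 84.6 and 22.9 CPM. Across the 10 named classes CFAP92 was highest in endothelial cells, at 100.3 CPM (68.2 to 142) from 31 UMIs, which overlapped its ependymal interval (70.8 to 100.4), and it was at 55.2 CPM in mural cells. CFAP276, with 42 UMIs in ependymal cells and 5 in astrocytes, and CFAP184, with 1 UMI in ependymal cells, were not measured. These rows entered no count above.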

How the data were processed

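The authors deposited raw UMI counts per gene and nucleus for the pooled libraries, all whole numbers. The submitters' processing notes name fastp, Cell Ranger 3.0.0 and the build GRCh38. As 5142 rows carry macaque identifiers, the build is not settled and no coordinates or sequences are given. A RefSeq table of another macaque assembly gave symbols to 851 identifiers. Columns left unused because no sample matched numbered 0.

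The 46 genes, the role and pathway lists and, by a hash of the name, about an equal part of the other genes (9873 in all) were held out of clustering. Scrublet scores, computed on all genes with the 46 included, removed 0.8% per 1000 nuclei in each barcode set (677, 634 and 551 nuclei). In Python 3.11.15 with scanpy 1.11.5, the log was taken of counts set to a total of 10000 in each nucleus. Leiden clustering at resolution 0.5 (igraph 0.11.9) used 2000 variable genes, 30 components and 15 neighbours, and batches were not corrected. Clusters were named by a mean log2 marker ratio over 3 with a lead of at least 1, by GAD1 plus GAD2 over 300 CPM, or by SLC17A7 over 75, SV2B over 45 and RBFOX3 over 600 CPM. A median doublet score over 0.06 kept a cluster unnamed, as did a low median depth with no marker of its own among its top 10 genes. These thresholds were set after the data were seen.

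Counts were summed per class and scaled to CPM. A log2 fold is the log2 of a CPM ratio, with a count of 0 set to 3 counts over the class. Intervals are exact (Poisson, Clopper-Pearson, conditional binomial). Full values are given, in each role group, for up to 3 genes with the most ependymal UMIs and the one with the smallest fold over astrocytes, for genes of at least 50 UMIs whose highest class is not ependymal, and of each further list for up to 2 with the largest and 1 with the smallest fold. The members and lists were chosen with earlier results of these data known. Fold calls and intervals were tested on simulated data. No test over specimens was possible, because nuclei could not be tied to them. Promoter motifs were not analysed here. The separate values of 1 excitatory cluster are not reported here. Alternatives were presumed doublets kept, each barcode set left out, resolution 1.0, clustering on all genes, the mean of CPM per nucleus, thinning to 1000 UMIs, other UMI minimums, 4-fold and excitatory neurons without the PROX1 cluster, the last chosen after seeing the data.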

Additional observations from a re-analysis of the deposited data

How the results depend on the processing

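Against astrocytes, oligodendrocytes, excitatory and inhibitory neurons the count of genes higher in ependymal cells stayed within 1.5 times of its reported value under every alternative run, and it was 35, 36, 37 and 37 with a 4-fold threshold. With presumed doublets kept, the median log2 fold was 4.55 against excitatory and 5.44 against inhibitory neurons, and the 46 genes summed to 22739.4 CPM in ependymal cells. The sum ran from 26229.6 to 26782.6 CPM with each barcode set left out in turn. Against inhibitory neurons the median was 5.36 with nuclei thinned to 1000 UMIs and 5.40 with no minimum on UMIs. The causes were not tested. Of 1611 log2 folds of called genes under the alternatives, 0 changed sign, 5 fell under 2-fold and 54 moved by over 1.5 times. Those under 2-fold were DNAL4 against astrocytes (0.86), CFAP36 (0.76) and CFAP20 (0.95) against oligodendrocytes with doublets kept, CFAP36 against oligodendrocytes without barcode set 1 (0.88) and DNAH8 against astrocytes without barcode set 3 (-0.95). Without the PROX1 cluster, CFAP54 was 5.88 and CFAP70 5.63 log2 units above excitatory neurons. No paired analysis was possible because the deposited columns carry no sample numbers. Depth limits the comparison with oligodendrocytes, whose 438 nuclei held 488 UMIs of the 46 genes.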

Other observations

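Of 1862 nuclei left out as presumed doublets, 98 would have been named ependymal when kept. Their median share of UMIs from the 46 genes was 1.12%, with 0.467% the lowest and with 57 nuclei over 1%, and their median depth was 4397.5 UMIs against 1933 in the ependymal nuclei kept. The remaining left-out nuclei had a median share of 0.125% and a highest share of 2.37%, and 61 of all left-out nuclei were over 1%. The full-depth separation of single nuclei given above thus holds with these nuclei left out.

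The 987 unnamed nuclei had a median of 968 UMIs, and the 46 genes summed to 1059.7, 996.9 and 1026 CPM in their 3 barcode sets. The largest unnamed cluster, of 390 nuclei, had a median of 536 UMIs. In mural cells CFAP45 was at 36.8 CPM (17.6 to 67.6) from 10 UMIs in 9 of 172 nuclei, its second level after ependymal cells. This gene was singled out there after its values were seen.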
